A study of Homo sapiens with 16 samples.

Results

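Acetylation peaks at 8 genes of platinum and drug transport were compared between epithelial ovarian cancer (EOC) cell lines. The genes were SLC31A1, ATP7B, ABCB1, ABCC1, ABCC2, ABCC3, ABCC4 and ABCG2, and they were chosen by name. A peak was counted for a gene when it overlapped the gene's hg19 window, given to 10 kb and extended by 20 kb on each side. Of the 179689 peaks in 8 lists, 177 lay in these windows, with 11 to 34 per list. The extended windows span 90 kb for SLC31A1 (chromosome 9), 130 kb for ATP7B (chromosome 13), 260 kb for ABCB1 (chromosome 7), 240 kb for ABCC1 (chromosome 16), 120 kb for ABCC2 (chromosome 10), 100 kb for ABCC3 (chromosome 17), 330 kb for ABCC4 (chromosome 13) and 190 kb for ABCG2 (chromosome 4).

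A2780 is an endometrioid EOC line that is sensitive to cisplatin (cPt), and A2780cis is its resistant derivative. CAOV4 is a high-grade serous EOC line, and CAOV4cis is the resistant line derived from it by exposure to rising cPt. Both resistant lines were kept in medium with cPt and their parents were not, so resistance and ongoing exposure cannot be told apart. The other cells were A2780 carrying a doxycycline-induced hairpin against MBD3, a subunit of the NuRD complex, called shMBD3.26 and shMBD3.232, sorted for the fluorescent reporter and harvested after 1 week of knockdown. Each parent is represented by 1 resistant derivative. H3K27ac was profiled in these 6 kinds of cells and H3K9ac in A2780 and A2780cis only, with 1 ChIP-seq library per condition. No difference between conditions therefore has a replicate check, and no p-value is given. The lists give the position and width of each peak and no signal, so the values below are lengths covered by peaks and not amounts of acetylation or mRNA. The depth behind a peak is unknown. The targeted gene cannot be checked from peak lists, and cells with the control hairpin were not analysed here.

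SLC31A1 encodes the copper importer CTR1, which also takes up platinum drugs, and ATP7B encodes a copper-exporting ATPase that can carry them out of the cytosol. The other 6 genes encode ABC transporters, which use ATP to move drugs, conjugates and lipids across membranes. ABCB1 (P-glycoprotein) and ABCG2 (BCRP) extrude many unconjugated drugs, whereas ABCC1 to ABCC4 (MRP1 to MRP4) carry glutathione, glucuronide or other conjugates and organic anions. H3K27ac marks active promoters and enhancers, and H3K9ac is found at active promoters and at many enhancers.

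The promoters of these genes differed in sequence, and they are shown because the peaks at the gene starts can be read beside them. RefSeq (GRCh38.p14) promoters were found for 6 of the 8 genes, not for ABCC1 and ABCC3. Each line gives the 250 bases upstream of a start, 5′ to 3′ on the strand of the gene, with GC boxes (GGGCGG on either strand) in capitals. Over 35116 promoters in the table, 42.6% held a GC box, 32% a CCAAT box (CCAAT on either strand) and 10.9% the core of the antioxidant response element (TGACNNNGC on either strand), and the median number of CpG was 11. The motifs searched do not overlap one another, and a match is a description of the letters only. SLC31A1 (chr9:113221294-113221543, plus strand) held 25 CpG, 3 GC boxes and 1 CCAAT box. ATP7B (chr13:52012133-52012382, minus strand) held 20 CpG, 3 GC boxes and 4 CCAAT boxes. ABCC4 (chr13:95301452-95301701, minus strand) held 42 CpG, no GC box and 1 antioxidant response element core. For ABCG2, an internal start (chr4:88158860-88159109, minus strand), 72.767 kb from the outermost one, held 29 CpG and 2 GC boxes, while the outermost start held 2 CpG. For ABCB1, an internal start (chr7:87600885-87601134, minus strand), 112.411 kb from the outermost one, held 12 CpG, no GC box and 2 CCAAT boxes. ABCC2 (chr10:99782390-99782639, plus strand) held 1 CpG and none of the motifs.
SLC31A1: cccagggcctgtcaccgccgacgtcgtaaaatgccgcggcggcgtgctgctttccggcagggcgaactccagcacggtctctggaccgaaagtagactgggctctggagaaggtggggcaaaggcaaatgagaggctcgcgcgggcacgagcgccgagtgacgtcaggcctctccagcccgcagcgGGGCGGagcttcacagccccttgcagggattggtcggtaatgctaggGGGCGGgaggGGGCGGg
ATP7B: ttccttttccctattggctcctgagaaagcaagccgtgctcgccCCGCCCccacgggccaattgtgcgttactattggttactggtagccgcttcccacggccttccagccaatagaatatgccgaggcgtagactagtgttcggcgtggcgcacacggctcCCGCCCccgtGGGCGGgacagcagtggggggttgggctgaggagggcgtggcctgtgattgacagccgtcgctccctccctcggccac
ABCC4: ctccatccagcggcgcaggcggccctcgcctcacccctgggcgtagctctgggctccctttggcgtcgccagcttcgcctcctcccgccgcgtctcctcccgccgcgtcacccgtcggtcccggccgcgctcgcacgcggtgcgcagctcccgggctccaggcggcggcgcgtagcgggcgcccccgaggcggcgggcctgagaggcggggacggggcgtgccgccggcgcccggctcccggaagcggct
ABCG2, internal start: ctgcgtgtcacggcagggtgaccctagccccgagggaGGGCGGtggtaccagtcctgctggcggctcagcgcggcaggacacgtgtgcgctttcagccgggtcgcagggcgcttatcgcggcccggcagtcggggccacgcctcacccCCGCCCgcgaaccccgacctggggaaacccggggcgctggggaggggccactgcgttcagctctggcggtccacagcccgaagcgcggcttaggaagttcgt
ABCB1, internal start: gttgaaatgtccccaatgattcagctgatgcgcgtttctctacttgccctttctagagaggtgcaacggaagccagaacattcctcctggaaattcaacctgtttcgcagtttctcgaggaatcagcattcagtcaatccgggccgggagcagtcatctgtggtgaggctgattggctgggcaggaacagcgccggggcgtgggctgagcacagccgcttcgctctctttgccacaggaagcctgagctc
ABCC2: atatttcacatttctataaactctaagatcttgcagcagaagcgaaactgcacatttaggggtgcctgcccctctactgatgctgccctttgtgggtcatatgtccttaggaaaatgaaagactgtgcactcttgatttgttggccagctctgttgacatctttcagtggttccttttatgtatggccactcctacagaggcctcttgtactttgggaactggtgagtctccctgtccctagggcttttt

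A peak at the gene start was listed in all 8 lists for SLC31A1 and ABCC1 and in 7 for ATP7B, against 5 for ABCC4, 2 each for ABCC2 and ABCC3, 1 for ABCG2 and 0 for ABCB1. The start was taken as the outermost 10 kb of the window at the 5′ end, since gene models on hg19 were not used here. Among the genes with a promoter in the table, the 3 whose outermost start held 20 to 42 CpG had a start peak in 5 to 8 lists, and the 3 with 1 or 2 CpG had one in 0 to 2 lists. ABCG2 and ABCB1 were scored at the outermost start only, and not at the internal starts shown above, which held more CpG. Inside ABCG2, chr4:89078201-89081000 had a peak in 6 lists, and whether it holds an internal start was not tested. The number of genes with a start peak per H3K27ac list was 4 in A2780, 4 in A2780cis, 4 with shMBD3.26, 5 with shMBD3.232, 5 in CAOV4 and 5 in CAOV4cis. For H3K9ac it was 4 in A2780 and 2 in A2780cis. The genes with one in A2780 only were ATP7B and ABCC4. Both are on chromosome 13, where 81.3% of 200 kb windows were lower by 2-fold or more in A2780cis for H3K9ac. The H3K9ac list of A2780cis holds 15365 peaks and that of A2780 holds 22782. The share over all gene starts was not computed for any list. After merging the peaks of all H3K27ac lists, 7 of 63 regions in the windows (11.1%) had a peak in all 6 lists, against 12.3% of all regions.

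**Figure D1:**
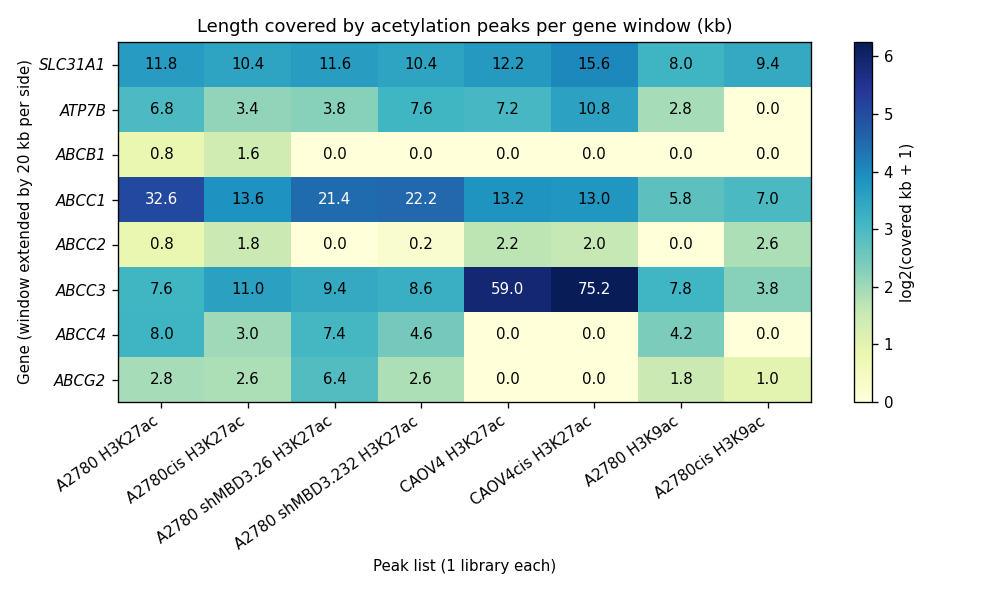
Length covered by peaks (kb) in each gene's extended window (vertical axis) in each of the 8 peak lists (horizontal axis), with the value printed in each cell and the colour on a log2(kb + 1) scale. ABCC3 in CAOV4 and CAOV4cis stands out with 59.0 and 75.2 kb, and ABCC4 and ABCG2 are at 0 in the same 2 lists.

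SLC31A1 had peaks in all 8 lists, covering 8.0 to 15.6 kb. H3K27ac peaks covered 11.8 kb in A2780, 10.4 kb in A2780cis, 11.6 kb with shMBD3.26, 10.4 kb with shMBD3.232, 12.2 kb in CAOV4 and 15.6 kb in CAOV4cis. H3K9ac peaks covered 8.0 kb in A2780 and 9.4 kb in A2780cis. The start peak lay in chr9:115980201-115987600 and was 3.0 to 7.4 kb wide. In the RefSeq gene order the start of SLC31A1 lies beside FKBP15, and a further region found in all 8 lists, chr9:116034801-116042600, lies beyond the 3′ end on the side of CDC26, so peaks of these neighbors cannot be told apart from those of SLC31A1. Inside the gene, chr9:115993601-115998600 was listed only in CAOV4 and CAOV4cis, with 4.2 and 3.6 kb. A2780cis was within the range of the 3 lists from sensitive A2780 cells, 10.4 to 11.8 kb.

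ATP7B was covered less in A2780cis than in A2780 by both marks. H3K27ac covered 6.8 kb in A2780, 3.4 kb in A2780cis, 3.8 kb with shMBD3.26, 7.6 kb with shMBD3.232, 7.2 kb in CAOV4 and 10.8 kb in CAOV4cis. H3K9ac covered 2.8 kb in A2780 and 0 kb in A2780cis. The start peak, in chr13:52584601-52588400 next to ALG11, was present in all 6 H3K27ac lists, with 0.8 kb in CAOV4cis and 2.2 to 3.4 kb in the others, and was wider in A2780cis (3.4 kb) than in A2780 (2.6 kb). For H3K9ac it held 2.6 of the 2.8 kb in A2780 and no peak in A2780cis. The region chr13:52567801-52573800, inside the gene, held 4.2 kb in A2780, 1.0 kb with shMBD3.26, 4.2 kb with shMBD3.232, 5.0 kb in CAOV4 and 3.0 kb in CAOV4cis, and no peak in A2780cis. It held no H3K9ac peak. In CAOV4cis there were 2 further regions without a peak in any other list, chr13:52579601-52583000 within the gene (3.4 kb) and chr13:52493001-52496600 (3.6 kb), beyond its 3′ end.

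ABCC4 had no H3K27ac peak in either CAOV4 line. H3K27ac covered 8.0 kb in A2780, 3.0 kb in A2780cis, 7.4 kb with shMBD3.26 and 4.6 kb with shMBD3.232, and H3K9ac covered 4.2 kb in A2780 and 0 kb in A2780cis. Most of it lay at the start, in chr13:95948201-95955800, with 6.6 kb in A2780, 3.0 kb in A2780cis and 4.6 kb with each hairpin. Inside the gene, chr13:95844001-95846600 was listed with 1.4 kb in A2780 and 1.8 kb with shMBD3.26, and neither in A2780cis nor with shMBD3.232.

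ATP7B and ABCC4 are both on chromosome 13, where A2780cis had fewer peaks than A2780, 306 against 657 for H3K27ac and 102 against 523 for H3K9ac. H3K27ac peaks covered 2.39% of the chromosome in A2780, 1.28% in A2780cis, 2.13% with shMBD3.26 and 1.96% with shMBD3.232, and H3K9ac peaks covered 1.41% in A2780 and 0.419% in A2780cis. Over all chromosomes the H3K27ac shares were 3.93% in A2780 and 3.73% in A2780cis. A window was called when its covered length differed by 2-fold or more and the larger value was at least 2 kb. Among 200 kb windows of chromosome 13 that reached 2 kb, 42.9% were called lower in A2780cis for H3K27ac and 81.3% for H3K9ac, a comparison added after seeing the data. The part of the chromosome in the lower values of ATP7B and ABCC4 was not tested.

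**Figure D2:**
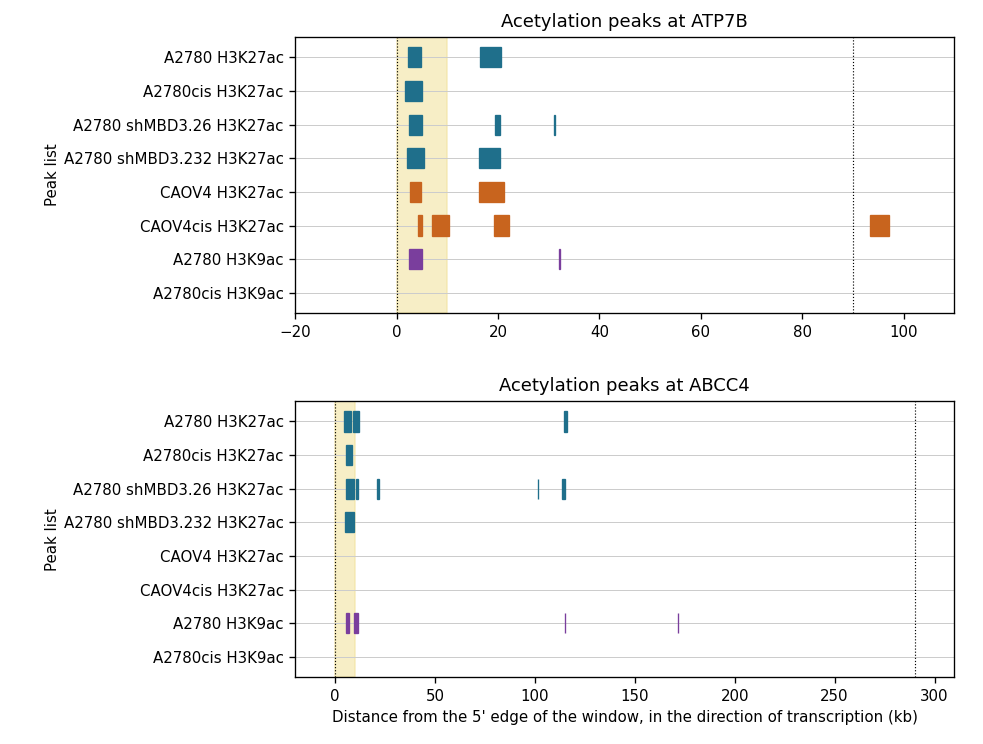
Peaks of the 8 lists at ATP7B and ABCC4, as bars to scale along the distance (kb) from the 5′ edge of the window in the direction of transcription, with the start interval shaded and dotted lines at the window's ends. A2780cis keeps the H3K27ac start peak of both genes and has no H3K9ac peak, and the CAOV4 lines have no peak at ABCC4.

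ABCB1 was almost without peaks. Its window of 260 kb held 0.8 kb of H3K27ac in A2780 and 1.6 kb in A2780cis, both in chr7:87256801-87258800, and 0 kb in the other 6 lists. No peak was listed at its outermost start. The peaks lay 91.2 to 93.2 kb from the 5′ edge, nearer to it than the internal start shown above, which is 112.411 kb from the outermost start on the other build. Both values are under the 2 kb needed for a call. The peak was wider in A2780cis than in A2780, and CAOV4cis had none.

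ABCC1 had the most peaks of the 8 genes in A2780, and fewer in A2780cis. H3K27ac covered 32.6 kb in 17 peaks in A2780, 13.6 kb in 7 peaks in A2780cis, 21.4 kb in 8 peaks with shMBD3.26, 22.2 kb in 8 peaks with shMBD3.232, 13.2 kb in 10 peaks in CAOV4 and 13.0 kb in 6 peaks in CAOV4cis. H3K9ac went the other way, with 5.8 kb in A2780 and 7.0 kb in A2780cis. At the start, chr16:16042201-16056200, H3K27ac covered 8.6 kb in A2780, 8.0 kb in A2780cis, 11.8 kb with shMBD3.26, 10.8 kb with shMBD3.232, 2.8 kb in CAOV4 and 4.0 kb in CAOV4cis. A further peak of 2.0 kb at the start, chr16:16039601-16041600, was listed in A2780 only. The other regions that differed between A2780 and A2780cis lay mostly in the body of the gene. Of the 18 regions in all windows with a peak in A2780 and not in A2780cis, 11 were at ABCC1, where 2 were in A2780cis only and 5 in both. Over all regions, 38.1% were in A2780 only. The 11 regions include chr16:16088001-16092600 (4.6 kb), chr16:16104801-16107400 (2.6 kb), chr16:16081201-16083600 (2.4 kb) and chr16:16068001-16070400 (2.4 kb). With either hairpin, 11 regions at ABCC1 were likewise listed in A2780 alone, and most were the same regions. The first 2 of those named had no peak with either hairpin, and chr16:16081201-16083600 held 1.6 kb with each. The last named, chr16:16068001-16070400, overlapped a peak of 2.8 kb with shMBD3.232 and none with shMBD3.26. Most of the 11 regions were thus absent from the hairpin lists of sensitive A2780 cells as well as from A2780cis. All these comparisons share the A2780 list, and the share over all regions was not computed. The regions not named here include narrow ones of 0.2 to 1.0 kb. The region chr16:16164601-16171600 was found in all 6 H3K27ac lists, with 3.8 kb in A2780, 1.2 kb in A2780cis and 4.0 to 6.2 kb in the others.

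**Figure D3:**
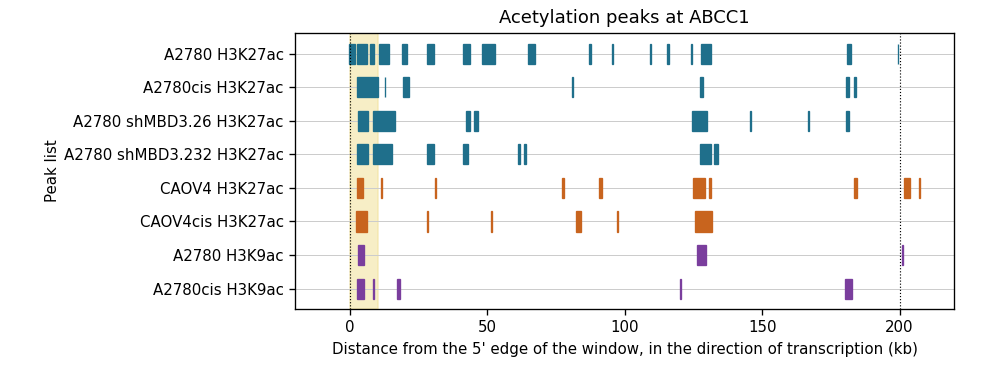
Peaks of the 8 lists at ABCC1, as bars to scale along the distance (kb) from the 5′ edge of the window, with the start interval shaded and dotted lines at the window's ends. The start peak is in all 8 lists, and the peaks between it and the 3′ end are most numerous in A2780, where 17 peaks cover 32.6 kb.

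ABCC2 had a start peak in the CAOV4 lines only. The start region chr10:101538601-101542000 held an H3K27ac peak of 2.2 kb in CAOV4 and 1.8 kb in CAOV4cis, and none in the 4 H3K27ac lists or the H3K9ac lists of A2780 origin. In those cells the peaks lay toward the 3′ end, in chr10:101604401-101606800, with 0.8 kb of H3K27ac in A2780, 1.8 kb in A2780cis, 0 kb with shMBD3.26 and 0.2 kb with shMBD3.232. H3K9ac covered 0 kb of the window in A2780 and 2.6 kb in A2780cis. Both marks were thus longer in A2780cis than in A2780 near the 3′ end, at lengths close to the 2 kb limit.

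ABCC3 had the longest covered length of the 8 genes, in the CAOV4 lines. H3K27ac peaks covered 59.0 kb in CAOV4 and 75.2 kb in CAOV4cis, against 7.6 kb in A2780, 11.0 kb in A2780cis, 9.4 kb with shMBD3.26 and 8.6 kb with shMBD3.232. H3K9ac covered 7.8 kb in A2780 and 3.8 kb in A2780cis. Without the 20 kb extensions, H3K27ac covered 46.8 kb in CAOV4 and 50.2 kb in CAOV4cis and 1.4 to 3.6 kb in the H3K27ac lists of A2780 origin. In the latter the widest peak, 4.2 to 6.8 kb, lay beyond the 3′ end on the side of ANKRD40, in a region found in all 8 lists, chr17:48776801-48817800. The start interval held a peak of 12.8 kb in CAOV4 and 12.2 kb in CAOV4cis and none in the other 6 lists. Within the gene, chr17:48751201-48775800 held 21.0 kb in each CAOV4 line and 0.4 to 3.0 kb in the H3K27ac lists of A2780 origin. The 8 windows together held 93.8 kb of H3K27ac in CAOV4 and 116.6 kb in CAOV4cis against 71.2 kb in A2780, and 34.8, 41.4 and 63.6 kb without ABCC3.

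**Figure D4:**
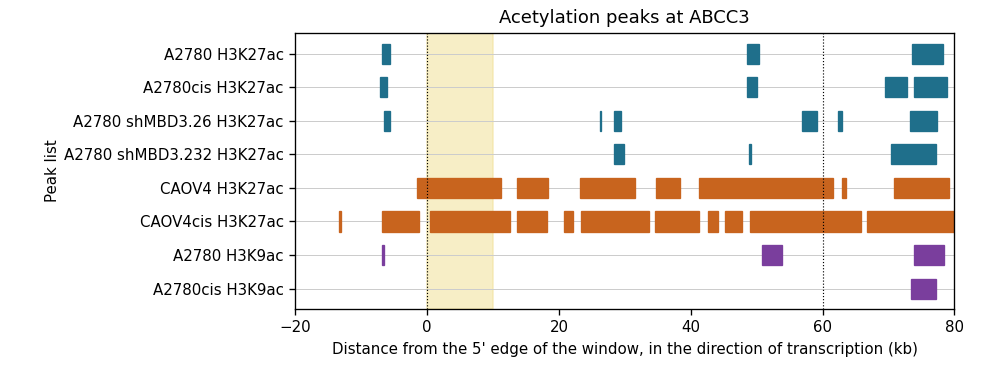
Peaks of the 8 lists at ABCC3, as bars to scale along the distance (kb) from the 5′ edge of the window, with the start interval shaded and dotted lines at the window's ends. H3K27ac fills most of the window in CAOV4 and CAOV4cis, and the lists of A2780 origin have narrow peaks in the gene and a shared one near the right edge.

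ABCG2 was the reverse of ABCC3, with no peak in either CAOV4 line. H3K27ac covered 2.8 kb in A2780, 2.6 kb in A2780cis, 6.4 kb with shMBD3.26 and 2.6 kb with shMBD3.232, and H3K9ac covered 1.8 kb in A2780 and 1.0 kb in A2780cis. At the outermost start only 1 peak of 0.2 kb was listed, with shMBD3.232. The widest region, chr4:89078201-89081000, held H3K27ac in all 4 lists of A2780 origin (1.0 kb in A2780, 2.6 kb in A2780cis, 2.4 kb with shMBD3.26 and 1.4 kb with shMBD3.232) and H3K9ac in both (0.4 kb in A2780 and 1.0 kb in A2780cis). RefSeq lists 4 further starts of ABCG2, 72.336 to 72.987 kb from the outermost one on its own build, and 3 of these held 27 to 32 CpG. A region of 2.4 kb, chr4:89115201-89117600, was listed with shMBD3.26 only.

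**Figure D5:**
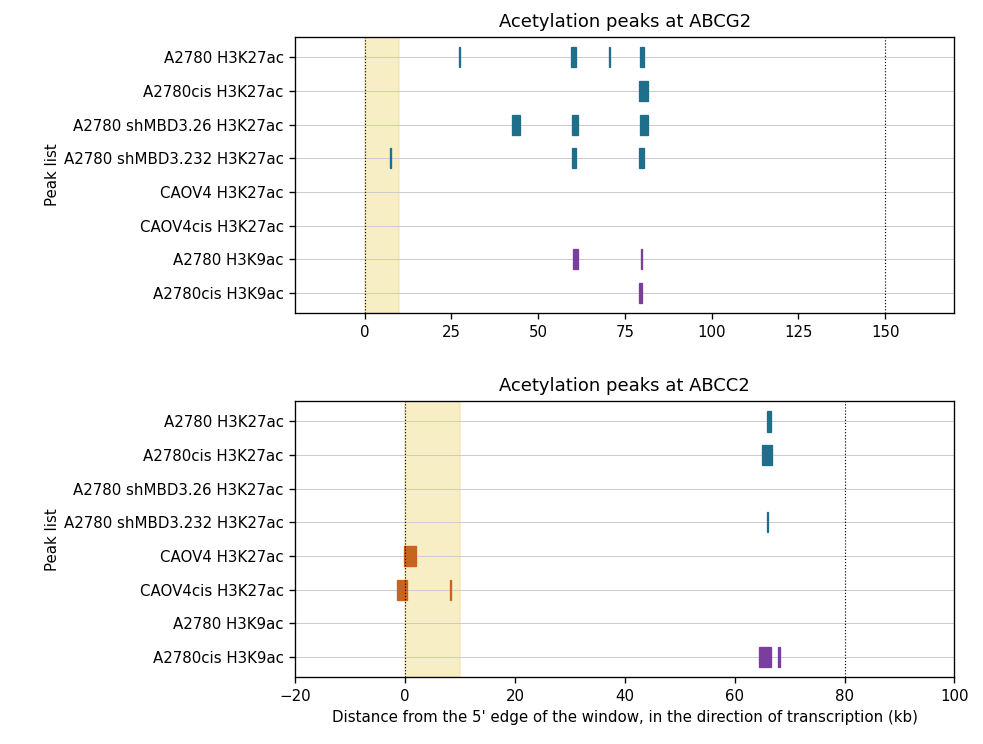
Peaks of the 8 lists at ABCG2 and ABCC2, as bars to scale along the distance (kb) from the 5′ edge of the window in the direction of transcription, with the start interval shaded and dotted lines at the window's ends. The lists of A2780 origin have peaks inside ABCG2 and the CAOV4 lines have none, while the start of ABCC2 has a peak in the CAOV4 lines only.

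The lines of different origin were compared by calling a gene when both CAOV4 lists lay 2-fold or more above, or below, all 4 H3K27ac lists of A2780 origin, a comparison added after seeing the data. Of the 7 genes with at least 2 kb in a list, ABCC3 was above, against 14.6% of all 200 kb windows and 19.1% of those on chromosome 17. ABCC4 and ABCG2 were below, against 12.6% of all windows, 11% of those on chromosome 13 and 19.2% of those on chromosome 4. H3K27ac peaks covered 1.6858 Mb of chromosome 4 in CAOV4 and 1.6902 Mb in CAOV4cis, and 3.2522 to 3.9998 Mb in the lists of A2780 origin. The lines differ in donor, histology and library, which cannot be told apart here.

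Resistant lines were compared with their parents. For H3K27ac in A2780cis against A2780, 3 of 6 genes with at least 2 kb were lower by 2-fold or more, ATP7B, ABCC1 and ABCC4, against 15.8% of all windows, and 0 of 6 were higher, against 14.5%. ATP7B lay at the limit, with 6.8 against 3.4 kb, and with lengths taken as a share of the list's total 2 genes were lower. The same 3 genes were below the range of the 3 lists from sensitive A2780 cells, against 19.8% of all windows. ATP7B was close to that range, at 3.4 kb against 3.8 kb with shMBD3.26. The share for chromosome 13 alone was not computed for this comparison. ABCC3 was above the range, against 42.8% of all windows. Without the 20 kb extensions it held 1.4 kb in A2780cis and 1.8 to 3.6 kb in those 3 lists. The whole lists with shMBD3.26 and shMBD3.232 covered less than that of A2780, 78.6 and 80.8 Mb against 98.9 Mb. For H3K9ac, ATP7B, ABCC3 and ABCC4 were lower by 2-fold or more, against 20.7%, and ABCC2 was higher, against 19.4%. In CAOV4cis against CAOV4, 0 of 5 genes were higher and 0 were lower by 2-fold or more, against 17.9% and 15.4%. The median difference was -0.8 kb over the 8 genes and 0 kb over all windows in A2780cis, and 0 kb over the genes and 0.8 kb over all windows in CAOV4cis. As 0 genes were called in CAOV4cis, these calls cannot show whether the resistant lines change alike.

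By regions, 18 of 36 H3K27ac regions in the windows were listed in A2780 only, or 50% (Wilson 95% interval 34.5% to 65.5%, counting error only), against 38.1% of all regions, and 3 in A2780cis only, or 8.33%, against 17.9%. ABCC1 alone held 11 of these 18 regions. The interval treats neighboring regions of 1 gene as independent, so the share is not a trait of the 8 genes as a set. The A2780 list is the longer one, with 28662 against 20899 peaks, and when both lists were cut to equal numbers of their widest peaks, 9 regions were in A2780 only and 6 in A2780cis only. For H3K9ac, 11 of 22 were listed in A2780 only, against 46%, and 6 in A2780cis only, against 21.7%, and with equal numbers of widest peaks 6 were in A2780 only and 7 in A2780cis only. In the CAOV4 pair, 8 of 32 were listed in CAOV4 only, against 29.1%, and 10 in CAOV4cis only, against 33.8%. None of the regions listed in 1 of 2 compared lists only was over 4.6 kb wide.

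The hairpins against MBD3 were compared with A2780 without a hairpin. The hairpin cells were also transduced, drug-selected, given doxycycline and sorted, so the knockdown cannot be told apart from these steps. The guide sequences of the hairpins are shown because the hairpins are told apart by them.
shMBD3.26: aacaaggtcaagagcgacccgc
shMBD3.232: ttgctcatcagcatcttgcccg

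With shMBD3.26, ABCG2 was higher by 2-fold or more (6.4 against 2.8 kb), against 3.97% of all windows, and 0 of 6 genes were lower, against 11.1%. With shMBD3.232, ABCG2 was at 2.6 kb, 0 of 6 genes were higher, against 2.11%, and 0 were lower, against 16.4%. The longer ABCG2 coverage was thus not seen with the other hairpin. ABCC1 was shorter with both, at 21.4 and 22.2 kb against 32.6 kb, which is less than a 2-fold difference. The median difference over the 8 genes was -0.7 kb with each hairpin, and over all windows it was -1.8 kb with shMBD3.26 and -2.0 kb with shMBD3.232. Of 43 regions, 17 were listed in A2780 only and 11 with shMBD3.26 only, against 34% and 18%. Of 37 regions, 17 were listed in A2780 only and 5 with shMBD3.232 only, against 40.1% and 10.9%. With equal numbers of widest peaks, the regions in A2780 only fell to 10 against shMBD3.26 and 6 against shMBD3.232. Both comparisons share the A2780 list.

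H3K9ac accompanied H3K27ac mostly at the wide peaks, as it did over the whole lists. In A2780, 12 of 34 H3K27ac peaks in the windows overlapped an H3K9ac peak, or 35.3% (21.5% to 52.1%), against 45% of all H3K27ac peaks. In A2780cis it was 7 of 18, or 38.9% (20.3% to 61.4%), against 52.9%. The intervals treat peaks of 1 gene as independent, and 17 of the 34 peaks in A2780 were at ABCC1. Among peaks over 2 kb, the counts were 8 of 14 in A2780 and 5 of 8 in A2780cis, against 70.1% and 73.1% of all such peaks. Up to 2 kb, they were 4 of 20 and 2 of 10, against 19.4% and 20.1%. The start peaks of SLC31A1 and ABCC1 carried both marks in both lines, and those of ATP7B and ABCC4 carried both in A2780 and H3K27ac alone in A2780cis.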

How the data were processed

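ChIP-seq of H3K27ac and H3K9ac with a spike-in of D. melanogaster mononucleosomes was analysed as deposited peak lists, 1 per library. Per the submitters' processing notes and the study's methods, the authors aligned reads with Bowtie2 to GRCh37/hg19, quantile normalized the data and called peaks per sample with MACS2, with versions not given in the sources used here. The score in the deposited lists is 0 for every peak and was not used. Peak boundaries fall on multiples of 200 bp, and neighboring peaks are separated by 1000 bp or more, a layout from a step that is not given in the sources used here. The 6 peaks off the standard chromosomes were left out. Some autosomes hold no peak in any list, so the shares over all regions and all windows do not include them.

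Lengths covered by peaks were summed per window. Peaks sharing at least 1 bp were merged into regions. Changes of 2-fold or more with at least 2 kb in 1 list were read against non-overlapping 200 kb windows from the first to the last peak of each chromosome. No p-value was computed, since each condition has 1 library. The 8 genes are all named, with the widest region of each. Other regions are named after their values were seen. The genes, windows and comparisons were chosen with earlier results of these data known. Gene order and promoters are from RefSeq (GRCh38.p14), and no coordinate was converted between builds. Alternatives were an overlap of 50%, peaks over 2 kb, equal numbers of widest peaks, extensions of 0 and 50 kb, lengths as a share of the list, 100 kb windows, a start interval extended outward by 5 kb, and leaving out chromosome 13. The calculations used Python 3.11.15, numpy 2.4.6, SciPy 1.17.1 and matplotlib 3.10.9 and were tested on simulated peak lists. Input libraries and other pathway genes were not analysed here.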

Additional observations from a re-analysis of the deposited data

Results flagged for a closer look

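For 3 genes the H3K27ac covered length moved in opposite directions in the 2 resistant lines, each against its parent, and these differences were not tested. The share of all windows that did so was not computed. Over all windows, 49.7% were higher in A2780cis and 56.7% in CAOV4cis, so opposite moves of some genes carry little weight. SLC31A1 changed by -1.4 kb in A2780cis and by 3.4 kb in CAOV4cis, a difference of 4.8 kb. Its A2780cis value was within the range of the lists from sensitive A2780 cells, 10.4 to 11.8 kb. ATP7B changed by -3.4 kb in A2780cis and by 3.6 kb in CAOV4cis, a difference of 7.0 kb. Without the 20 kb extensions ATP7B held 7.2 kb in both CAOV4 and CAOV4cis. Its net change in CAOV4cis was the peak beyond the 3′ end. ABCC2 changed by 1.0 kb in A2780cis and by -0.2 kb in CAOV4cis, a difference of -1.2 kb, which is a few steps of the 200 bp grid.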

How the results depend on the processing

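With 1 library per condition no replicate could be left out. No paired analysis was possible because each condition has 1 library and no comparison comes from a test. Of 154 alternative values over 44 results, 126 stayed within 1.5 times the reported value and 28 moved. With peaks over 2 kb, the regions listed in A2780 only against A2780cis numbered 8 for H3K27ac and 4 for H3K9ac, those in A2780cis only for H3K9ac numbered 2, those in CAOV4 only and CAOV4cis only numbered 3 and 2, those in A2780 only against shMBD3.26 and shMBD3.232 numbered 5 and 3, and those with either hairpin only numbered 3 and 0. That setting also called 1 gene higher in A2780cis for H3K27ac, 1 lower in CAOV4cis, 1 lower with shMBD3.26 and 1 below in both CAOV4 lists. With equal numbers of widest peaks, 6 H3K27ac regions were in A2780cis only and 9 in A2780 only, 6 H3K9ac regions were in A2780 only, 10 and 6 regions were in A2780 only against shMBD3.26 and shMBD3.232, and 1 gene was below in both CAOV4 lists. With extensions of 50 kb, 17 H3K9ac regions were in A2780 only, 0 genes were higher in A2780cis for H3K9ac and 0 with shMBD3.26. With extensions of 0 kb, 1 gene was lower in CAOV4cis and 2 were higher with shMBD3.26. Without chromosome 13, 1 gene was lower in A2780cis for each mark, ABCC1 for H3K27ac and ABCC3 for H3K9ac. As a share of the list, 2 genes were lower in A2780cis for H3K27ac, and 0 genes were above and 5 below the range of the A2780 lists. The cause was not tested. The background shares with 100 kb windows stayed within 1.5 times in 10 of 10. The precision of a peak is limited by an unknown depth.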
